A study of Arabidopsis thaliana with 6 samples.

Results

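The genes described here are the 10 type-A response regulator genes of Arabidopsis thaliana, ARR3 to ARR9 and ARR15 to ARR17. They were chosen by locus, and all 10 were found among the 37336 gene identifiers of the count tables. The comparison is of the hsl2 mutant with wild type, both in the Col-0 ecotype, in the outermost 0.5 mm of the primary root of plants aged 7 days grown on agar in long days (16 h light, 8 h dark). Each genotype had 3 libraries of total RNA. The series was designed to find how mutation of the HAESA-related receptor kinase HSL2 affects the shedding of root cap cells. The labels do not give the hsl2 allele. They also do not say whether replicates were grown or collected apart, and the p-values below therefore measure a spread between samples that may be technical.

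Cytokinin is perceived by histidine kinase receptors, which pass a phosphoryl group through phosphotransfer proteins to the type-B response regulators, the transcription factors of the pathway. Type-A response regulators have the same receiver domain but no DNA-binding domain. Type-B proteins switch their genes on, and the type-A proteins in turn dampen cytokinin signalling, so their transcripts are widely used as a readout of the response. In the root tip cytokinin is known for limiting the size of the division zone by driving cells into differentiation.

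The 10 genes fall into the sister pairs ARR3 and ARR4, ARR5 and ARR6, ARR7 and ARR15, ARR8 and ARR9, and ARR16 and ARR17. The longest run of identical bases shared by the longest annotated transcripts of any pair of members was 41 bases, in ARR3 with ARR4 and in ARR8 with ARR9. In the annotation used for lengths and names, AT2G41310, which is ARR8, carries the symbol RR3 and must not be mistaken for ARR3 (AT1G59940). The gene models of ARR6, ARR8 and ARR9 overlap a gene on the opposite strand by 348, 299 and 231 bases. The strand setting of the counting is not given in the sources used here, so reads from those stretches cannot be assigned to a strand.

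Type-B regulators are known to bind DNA with the core AGATT, which was looked for on both strands in the 250 bases before the annotated start of each gene. Of the 10 members, 7 held at least 1 match, against 63.7% of 27443 protein-coding nuclear genes. The longer word AAGATT, which contains the core, was in 5 of 10 members and in 30.5% of genes. The word AGATACG was also looked for, and was in 0 of 10 members and in 1.69% of genes. A match is a description of the letters and not a binding site. The sequences below are of the 3 genes whose libraries separated by genotype, followed by ARR7, whose libraries did not. They come from the RefSeq TAIR10.1 assembly, looked up by locus, and run 5′ to 3′ towards the gene start, with the core and its reverse complement in capitals. The genome build behind the counts is not given in the sources used here, and no count depends on these positions.
ARR3, chr1:22067234-22067483, minus strand: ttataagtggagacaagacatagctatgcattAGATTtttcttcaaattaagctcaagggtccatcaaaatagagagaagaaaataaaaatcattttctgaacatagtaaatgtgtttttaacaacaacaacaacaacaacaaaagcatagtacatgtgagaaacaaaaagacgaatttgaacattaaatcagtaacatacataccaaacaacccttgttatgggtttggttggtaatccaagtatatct
ARR4, chr1:3444361-3444610, minus strand: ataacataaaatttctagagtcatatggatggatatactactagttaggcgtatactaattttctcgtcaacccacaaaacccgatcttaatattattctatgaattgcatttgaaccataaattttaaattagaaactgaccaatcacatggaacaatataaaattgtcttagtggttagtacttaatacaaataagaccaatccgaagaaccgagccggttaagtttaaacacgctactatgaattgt
ARR9, chr3:21108809-21109058, plus strand: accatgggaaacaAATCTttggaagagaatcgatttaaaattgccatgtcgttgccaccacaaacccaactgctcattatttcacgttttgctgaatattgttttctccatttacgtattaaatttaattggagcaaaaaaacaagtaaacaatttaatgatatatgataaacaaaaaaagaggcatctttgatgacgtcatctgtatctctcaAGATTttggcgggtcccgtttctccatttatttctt
ARR7, chr1:6579315-6579564, minus strand: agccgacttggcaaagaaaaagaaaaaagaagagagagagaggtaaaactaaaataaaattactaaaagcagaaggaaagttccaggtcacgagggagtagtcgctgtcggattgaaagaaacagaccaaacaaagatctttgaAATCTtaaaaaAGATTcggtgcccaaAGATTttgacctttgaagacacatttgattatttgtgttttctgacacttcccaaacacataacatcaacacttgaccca

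These stretches held 1 match in ARR3, 0 in ARR4, 2 in ARR9 and 3 in ARR7. The log2 fold changes of these genes, described below, were 0.98, 0.41, 0.42 and 0.12 in the same order. The other tested members held 0 matches in ARR5, 3 in ARR6, 1 in ARR8 and 1 in ARR15. Their log2 fold changes were 0.31, 0.22, 0.21 and 0.29 in that order. A relation between matches and fold changes was not tested.

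Total gene counts ran from 15051468 to 20468890 per library, and the 10 members together took between 3904 and 6650 counts. HSL2 transcript (AT5G65710) was at 6.98 to 8.61 CPM (counts scaled to a common library size, with TMM factors) in wild type and 7.61 to 9.81 CPM in hsl2, which does not check the genotype. Markers of the root cap, of the stem cell region and of the stele were all detected in every library. A pair of libraries stood apart. The summed level of 10 green tissue markers was 95.5 CPM in hsl2 1 and 12.5 to 22.8 CPM in the other 5 libraries. The summed level of 6 root hair markers was 29.7 CPM in wild type 3 against 5.85 and 8.43 CPM in the other wild type libraries, and 21.3 to 39.0 CPM in hsl2. Over all genes wild type 3 was also nearer to hsl2 2 and hsl2 3 than to the other wild type libraries: the chi-square of the counts per degree of freedom was 13.3 and 12.7 against 17.0 and 21.5. Results are also given without hsl2 1 and wild type 3, a fit that leaves out the wild type library most like hsl2. In whole tips, fewer cells of a type and less RNA per cell cannot be told apart.

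Of the 8 tested members 0 passed the threshold, although all had a higher fitted level in hsl2. The test was edgeR's quasi-likelihood test with Benjamini-Hochberg adjustment over 17989 genes, and 0 of those genes passed an adjusted p of 0.05 (0% of genes). Unadjusted p-values were under 0.05 for 2436 genes (13.5%), 1355 of them higher in hsl2 (7.53%). DESeq2, run on the same genes, called 292 genes (1.62%). All 8 tested members had a log2 fold change above 0, against 51.6% of all tested genes, and their median was 0.30, against 0.01 over all tested genes. The members were measured in the same 6 libraries and some varied together, so their directions are not independent. The members' median was 0.17 without wild type 1. An unadjusted p under 0.05 was found for 3 members, all higher in hsl2: ARR3, ARR4 and ARR9. These members were also the ones in which every hsl2 library lay above every wild type library, which held for 11.3% of tested genes. ARR16 and ARR17 did not pass the filter on low counts and were not tested.

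**Figure D1:**
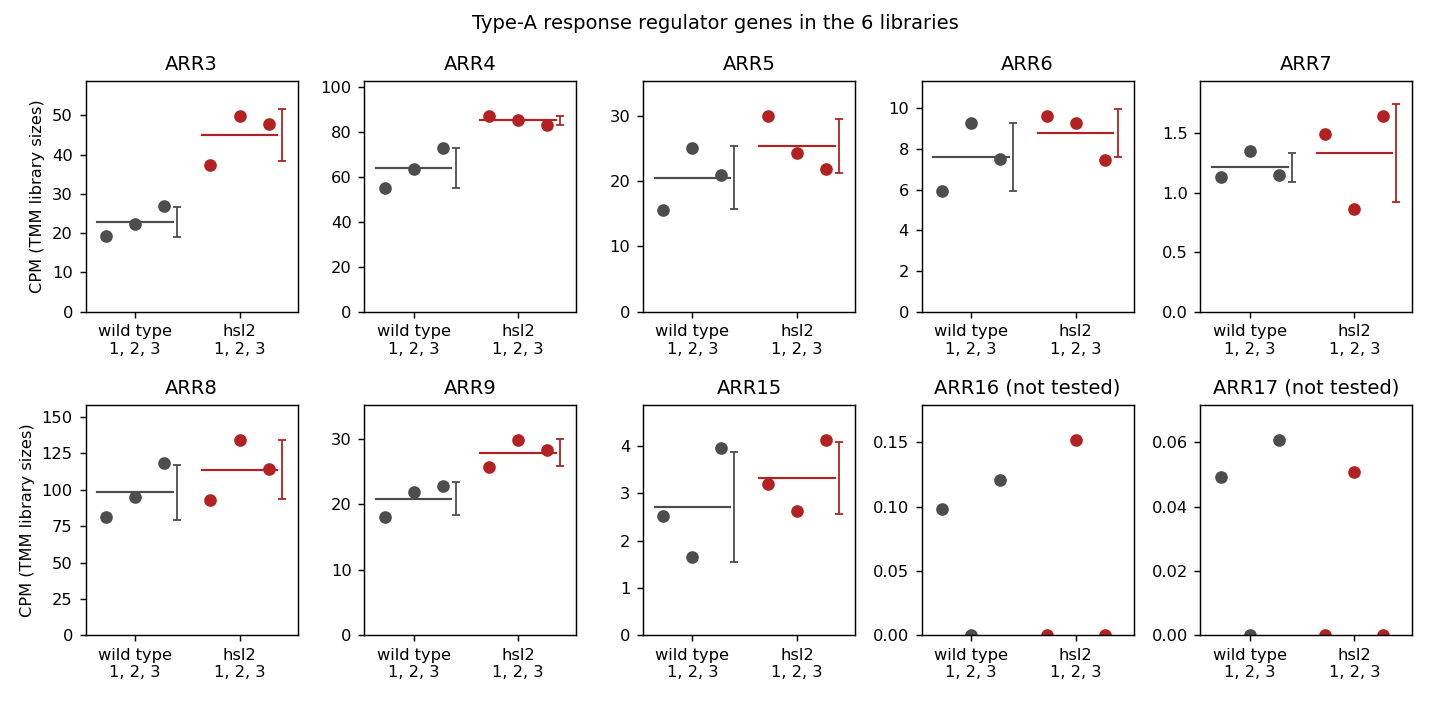
Each panel shows 1 gene, with the level in CPM on TMM library sizes on an axis that starts at 0 and 1 point per library, in the order of the replicate numbers 1 to 3 from left to right in each genotype. Lines are group means and bars are SDs (n = 3), drawn for the 8 tested genes. The genotypes separate for ARR3, ARR4 and ARR9 and overlap in the other panels.

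ARR3 and ARR4 are known to act redundantly in setting the period of the circadian clock, and ARR4 also binds the photoreceptor phytochrome B. ARR3 (AT1G59940) was at 19.4, 22.3 and 26.9 CPM in wild type 1 to 3, against 37.4, 49.8 and 47.8 CPM in hsl2 1 to 3. Every hsl2 library was above every wild type library, with hsl2 1 the lowest of its group and wild type 3 the highest of its own. Wild type averaged 22.9 ± 3.82 CPM and hsl2 45.01 ± 6.70 CPM (SD, n = 3 each). The log2 fold change was 0.98 (SE 0.17, 95% interval 0.61 to 1.35). The adjusted p was 0.133 with edgeR and 0.000191 with DESeq2. By unadjusted p ARR3 ranked 21 among the 17989 genes. ARR3 was the 1 member called by DESeq2, which called 165 genes higher in hsl2 (0.917%).

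Whether ARR3 passed depended on the setting, with 4 of 14 alternatives past the threshold, while its log2 fold change ran from 0.86 to 1.23. ARR3 did not pass with other scalings of library size (adjusted p = 0.138 and 0.144, edgeR). Nor did it pass with a filter at 1 CPM in 3 libraries (adjusted p = 0.133, edgeR) or with limma-voom (adjusted p = 0.123). It passed without the filter on low counts (log2 fold change 0.97, adjusted p = 0.0159, edgeR; 0.455% of genes passed, 0.203% higher in hsl2) and with replicate number added to the model (0.98, adjusted p = 0.0350, edgeR; 0.289% of genes passed, 0.128% higher). Without hsl2 1 and wild type 3 its log2 fold change was 1.23 (adjusted p = 0.000953, edgeR; 7.2% of genes passed, 4.48% higher). With single libraries left out the log2 fold change ran from 0.86, without wild type 1, to 1.11, without wild type 3 (adjusted p from 0.0522 to 0.525, edgeR). Without wild type 3, 0.302% of all genes passed, 0.231% higher in hsl2.

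ARR4 (AT1G10470), the sister of ARR3, was at 55.2, 63.4 and 72.8 CPM in wild type 1 to 3, against 86.9, 85.2 and 82.9 CPM in hsl2 1 to 3. The hsl2 libraries lay close together and above all wild type libraries. Wild type averaged 63.8 ± 8.78 CPM and hsl2 85.01 ± 2.01 CPM (SD, n = 3). The log2 fold change was 0.41 (SE 0.14, 95% interval 0.11 to 0.72; adjusted p = 0.300, edgeR, and 0.190, DESeq2). Without hsl2 1 and wild type 3 it was 0.50 (adjusted p = 0.0233, edgeR), in a fit where 7.2% of all genes passed. In TPM (counts scaled by transcript length and to a common sum, without TMM factors) the groups of ARR4 overlapped, with wild type 3 at 57.2 and hsl2 1 at 56.2 TPM.

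The ratio of ARR3 to ARR4 in TPM was 0.562, 0.562 and 0.593 in wild type 1 to 3 and 0.688, 0.936 and 0.924 in hsl2 1 to 3. Within wild type it hardly varied, and all hsl2 libraries were above it, hsl2 1 the least. Means were 0.572 ± 0.0179 and 0.849 ± 0.140 (SD, n = 3). No test was made on this ratio, which was chosen with the levels of both genes known. The TPM ratios of ARR5 to ARR6, of ARR7 to ARR15 and of ARR8 to ARR9 overlapped between genotypes.

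ARR8 and ARR9 are known to respond to cytokinin less strongly than the other members. ARR9 (AT3G57040) was at 18.0, 21.9 and 22.7 CPM in wild type against 25.6, 29.8 and 28.2 CPM in hsl2. The groups did not overlap, and hsl2 1 was again the lowest of its group. Wild type averaged 20.9 ± 2.52 CPM and hsl2 27.9 ± 2.099 CPM (SD, n = 3). The log2 fold change was 0.42 (SE 0.14, 95% interval 0.10 to 0.74; adjusted p = 0.308, edgeR, and 0.258, DESeq2). Without hsl2 1 and wild type 3 it was 0.54 (adjusted p = 0.0415, edgeR), in a fit where 7.2% of all genes passed. As with ARR4, its groups overlapped in TPM, with wild type 3 at 19.8 and hsl2 1 at 18.4. In TPM the groups of ARR3 alone among the members stayed apart, which held for 5.34% of 17976 genes with a length.

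ARR8 (AT2G41310) was at 81.2, 95.2 and 118.4 CPM in wild type against 93.1, 134.1 and 114.1 CPM in hsl2. The groups overlapped, with wild type 3 above hsl2 1 and hsl2 3. Its log2 fold change was 0.21 with a 95% interval of -0.19 to 0.61 (adjusted p = 0.602, edgeR). Without hsl2 1 and wild type 3 it was 0.49 (adjusted p = 0.0378, edgeR), in a fit where 7.2% of all genes passed. It was 0.08 without wild type 1 or without hsl2 2.

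**Figure D2:**
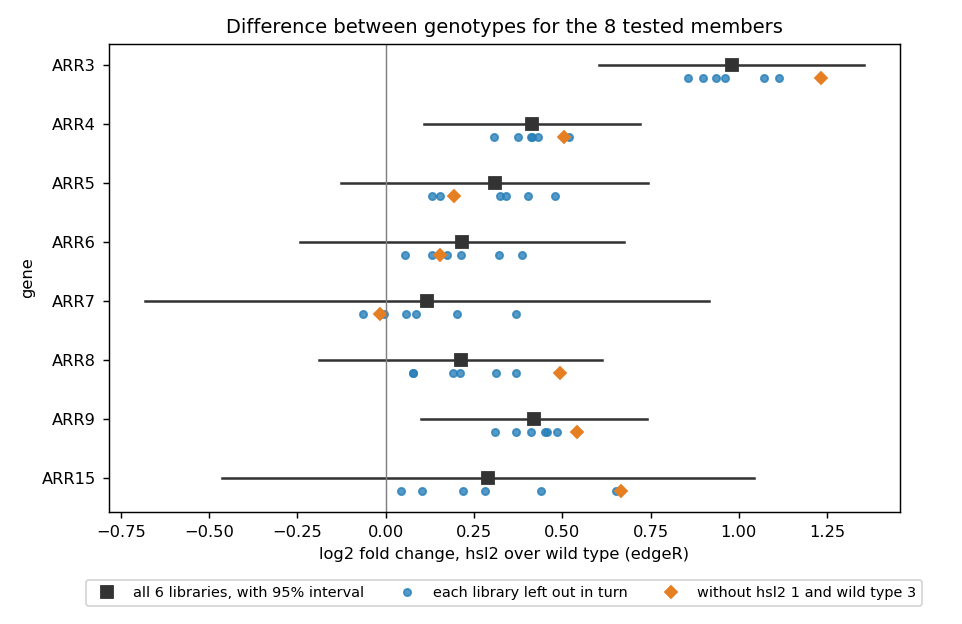
Log2 fold changes of hsl2 over wild type (horizontal axis) are shown for the 8 tested members, 1 row each. Squares with lines are the estimates from all 6 libraries with 95% intervals, circles the estimates with each library left out in turn, and diamonds those without hsl2 1 and wild type 3. The intervals of ARR3, ARR4 and ARR9 lie above 0, before any adjustment for the number of genes, and that of ARR3 starts at 0.61.

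ARR5 and ARR6 are strongly induced by cytokinin, and the ARR5 promoter is a common reporter of the response, active in the root cap. ARR5 (AT3G48100) was at 15.5, 25.1 and 20.9 CPM in wild type against 29.9, 24.3 and 21.9 CPM in hsl2. ARR6 (AT5G62920) was at 5.95, 9.29 and 7.53 CPM in wild type against 9.61, 9.30 and 7.46 CPM in hsl2. For both genes wild type 1 was the lowest library, hsl2 1 was the highest and the groups overlapped. The log2 fold changes were 0.31 (95% interval -0.13 to 0.74) for ARR5 and 0.22 (-0.24 to 0.68) for ARR6, with adjusted p-values of 0.496 and 0.646 in edgeR. Without wild type 1 they were 0.13 and 0.05, and without hsl2 1 they were 0.15 and 0.13. Without hsl2 1 and wild type 3 they were 0.19 and 0.15. Over the 6 libraries the log2 CPM values of ARR5 and ARR6 had a Pearson correlation of 0.954, as a description in which the difference between genotypes is included.

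ARR7 and ARR15 are known from the embryonic root, where auxin induces them. Both were low here. ARR7 (AT1G19050) had 17 to 25 counts per library, at 1.13, 1.35 and 1.15 CPM in wild type against 1.49, 0.859 and 1.64 CPM in hsl2. The hsl2 libraries lay on both sides of all the wild type libraries. Its log2 fold change was 0.12 with a 95% interval of -0.68 to 0.92 (adjusted p = 0.902, edgeR), and its sign turned when hsl2 1 or hsl2 3 was left out, with -0.01 and -0.06, or when hsl2 1 and wild type 3 were, with -0.02.

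ARR15 (AT1G74890) had 27 to 65 counts per library. It was at 2.51, 1.66 and 3.94 CPM in wild type against 3.20, 2.63 and 4.12 CPM in hsl2. The groups overlapped, and the level varied by more within wild type than between the group means of 2.70 and 3.32 CPM. Its log2 fold change was 0.29 (95% interval -0.46 to 1.04, adjusted p = 0.707, edgeR), and it was 0.65 without wild type 3, 0.04 without wild type 2 and 0.66 without hsl2 1 and wild type 3.

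ARR16 and ARR17 are known from the stomatal lineage and from the response of roots to water. They were close to absent from these libraries. ARR16 (AT2G40670) had 2, 0 and 2 counts in wild type and 0, 3 and 0 counts in hsl2. ARR17 (AT3G56380) had 1, 0 and 1 counts in wild type and 0, 1 and 0 counts in hsl2. A count of 3 corresponded to 0.148 to 0.213 CPM in these libraries, so no difference was detectable at this depth.

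Set in order by mean TPM over the 6 libraries, the members were ARR8 at 70.5, ARR4 at 55.4, ARR3 at 40.4, ARR5 at 24.6, ARR9 at 20.2, ARR6 at 8.78, ARR15 at 4.36 and ARR7 at 2.104 TPM. ARR17 and ARR16, at 0.0698 and 0.0481 TPM, rested on 3 and 7 counts in all. The order of the 10 means was the same in each genotype alone. ARR9 stood clear of ARR6, ARR6 of ARR15 and ARR7 of ARR17, with no overlap between their ranges over libraries. The ranges of the other neighbours overlapped: ARR8 was above ARR4 in 5 of 6 libraries, the exception being hsl2 1, and ARR3 was above ARR5 in 5 of 6, the exception being wild type 2. ARR4 was above ARR3, ARR5 above ARR9 and ARR15 above ARR7 in all 6 libraries.

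**Figure D3:**
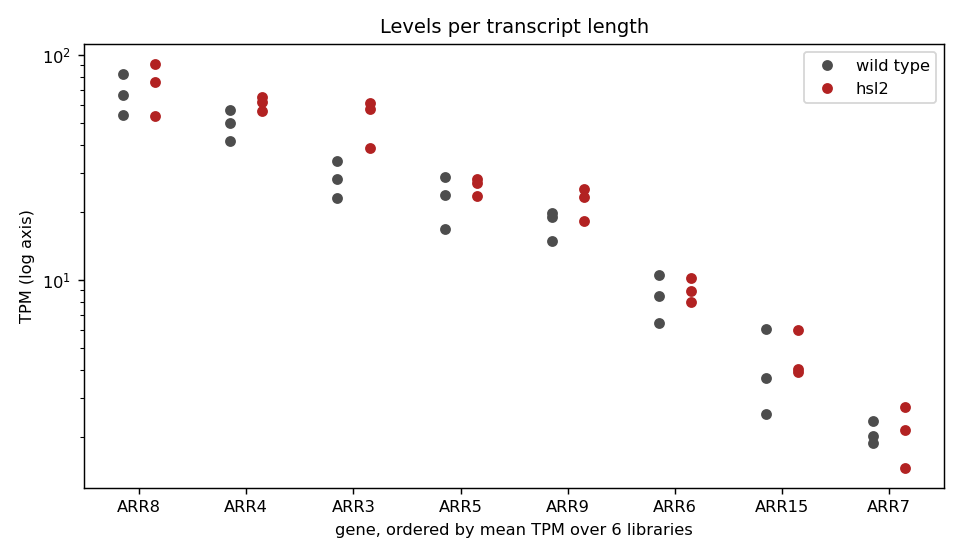
Levels in TPM (vertical log axis) are shown for the 8 members with a mean above 1 TPM, from the highest to the lowest mean, with wild type libraries in grey and hsl2 libraries in red, 1 point per library. ARR8, ARR4 and ARR3 are the 3 most abundant members, and ARR3 is the gene whose red and grey points do not overlap.

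ARR3 made up a larger share of the family's summed TPM in hsl2. The share was 14.3%, 13.5% and 14.5% in wild type 1 to 3 and 18.5%, 21.4% and 22.1% in hsl2 1 to 3. ARR8 made up 33.2%, 32.0% and 35.2% in wild type and 25.4%, 31.9% and 29.2% in hsl2, with wild type 2 and hsl2 2 almost level. ARR4 stayed between 22.9% and 26.8% in all libraries. The summed TPM of the 10 members was 162.5, 207.7 and 233.9 in wild type and 209.9, 285.7 and 258.7 in hsl2, and these ranges overlapped. The summed CPM was 199.0, 240.2 and 274.5 against 287.2, 336.2 and 308.2, and these ranges did not overlap, so whether the family total separated depended on the scale.

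The members did not vary alike from library to library. Over the 6 libraries ARR3, ARR4 and ARR9 had pairwise Pearson correlations of log2 CPM of 0.926 to 0.970, while ARR7 had correlations of -0.381 to 0.268 with the other tested members. These values describe 6 libraries, and the difference between genotypes is part of each. Among 14213 other tested genes at a mean of at least 5 CPM, the genes most like ARR3 in log2 CPM were AT2G25260, AT2G36410, AT1G52600, AT2G27360 and HAT2 (AT5G47370), with Pearson correlations of 0.994, 0.992, 0.990, 0.988 and 0.988. The genes most like the mean of the tested members were AT5G10990, AT1G44608, BSK1 (AT4G35230), AGP22 (AT5G53250) and AT5G35740, with correlations of 0.998, 0.998, 0.996, 0.994 and 0.994. With 6 libraries such values are common: 392 genes reached 0.9 with ARR3 and 327 with the mean.

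**Figure D4:**
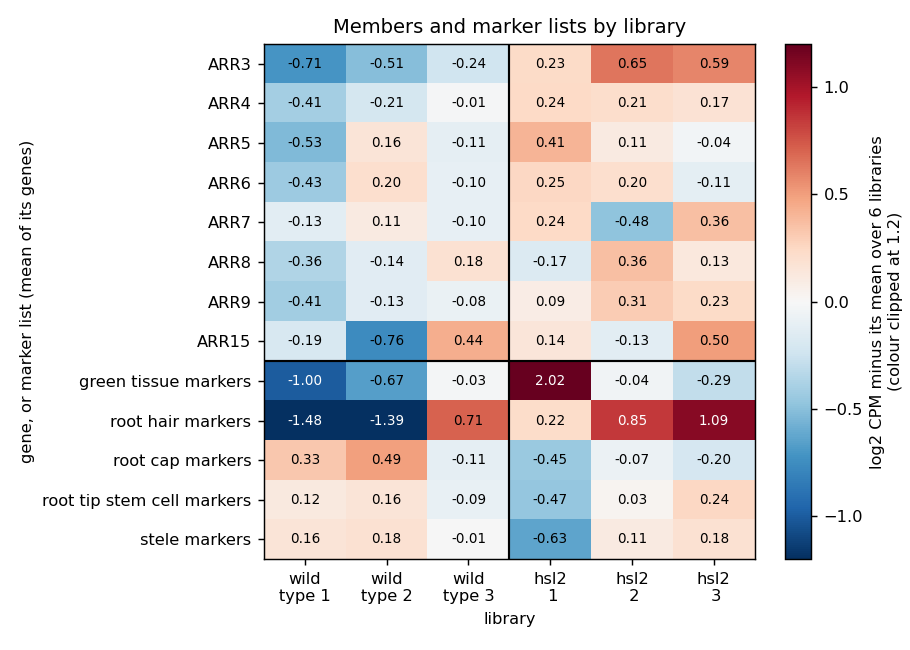
Colours and numbers give log2 CPM minus its mean over the 6 libraries (columns), for the 8 tested members in the upper rows and for marker lists, as the mean of their tested genes, in the lower rows. ARR3 is negative in all wild type libraries and positive in all hsl2 libraries, root hair markers are positive in wild type 3 and in hsl2, and green tissue markers stand at 2.02 in hsl2 1.

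Marker lists moved with part of these results. The 6 root hair markers, all 6 detected in every library, summed to 5.85, 8.43 and 29.7 CPM in wild type against 21.3, 37.1 and 39.0 CPM in hsl2. ARR3, ARR4, ARR8, ARR9 and ARR15 were each at their wild type maximum in wild type 3. Without wild type 3 the log2 fold changes were 1.11 for ARR3, 0.52 for ARR4, 0.48 for ARR9 and 0.37 for ARR8. All 6 root hair markers had a log2 fold change above 0, as had 9275 of 17989 tested genes, and their median was 1.12. An unadjusted p under 0.05 in edgeR was found for 2 of the 6, and for 1355 of all tested genes in the higher direction. After adjustment 0 of the 6 passed in edgeR or DESeq2. Without hsl2 1 and wild type 3 all 6 passed in edgeR, with a median of 2.41, in a fit where 7.2% of genes passed. The part of the root hair markers in the result was not tested. For the sum of the 10 green tissue markers, of which 3 had 0 counts in some library and 0 had none in every library, hsl2 1 was the high library. RCA was instead highest in wild type 3 (6.19 CPM, against 5.76 CPM in hsl2 1). LHCB2.2 was highest in hsl2 2 (0.455 CPM, against 0.213 CPM in hsl2 1). The other green tissue markers were each highest in hsl2 1. ARR3 was lower in hsl2 1 than in hsl2 2 and 3, and without hsl2 1 its log2 fold change was 1.07. The 4 stele markers summed to 143.8 CPM in hsl2 1 and 215.5 to 247.4 CPM in the other libraries. The 5 markers of the stem cell region were also lowest in hsl2 1, at 135.4 CPM against 177.9 to 214.7 CPM. The 4 root cap markers summed to 82.5, 93.2 and 65.5 CPM in wild type against 49.7, 70.2 and 65.6 CPM in hsl2. All 4 had a log2 fold change below 0, as had 8714 of 17989 tested genes, and their median was -0.53. An unadjusted p under 0.05 in edgeR was found for 2, and for 1081 of all tested genes in the lower direction. After adjustment 0 of the 4 passed in edgeR or DESeq2. BRN2, a root cap transcription factor gene, was at 16.6, 18.1 and 11.7 CPM against 11, 10.5 and 7.92 CPM. Every hsl2 library lay below every wild type library, as in 9.44% of tested genes. The part of these markers in the result was not tested.

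Upstream and downstream of the type-A genes, 0 of 36 tested genes in 9 other lists of the cytokinin pathway passed the edgeR threshold (0% of all genes tested passed). Of 60 genes in these lists 36 passed the filter, with 19 higher and 17 lower in hsl2 and a median log2 fold change of 0.06. An unadjusted p under 0.05 was found for 5 of 36, 4 higher and 1 lower, a share close to the 13.5% of all tested genes. The groups did not overlap in CPM for 5 of the 36 in the higher direction and 1 in the lower. Over all tested genes these shares were 11.3% and 9.44%. DESeq2 called 1, the F-box gene KMD4, and 1.62% of all genes. Without hsl2 1 and wild type 3, 4 of them passed, all higher: AHK4, AHP1, CKX3 and SHY2. The fit leaves out the highest wild type library of AHP1, CKX3 and SHY2. It also leaves out the lowest hsl2 library of AHK4, AHP1 and CKX3. In that fit 7.2% of all genes passed, 4.48% higher in hsl2.

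The receptors AHK2, AHK3 and AHK4 had log2 fold changes of -0.19, -0.01 and 0.31. AHK4, the main receptor of the root, was at 50.4, 73.2 and 71.1 CPM in wild type. In hsl2 it was at 43.3, 100.3 and 97.0 CPM, with hsl2 1 below all other libraries. The median of the receptors was -0.01, and 0.35 without hsl2 1 and wild type 3. The 5 tested phosphotransfer genes all had values above 0, with a median of 0.48, which was 0.24 without hsl2 2. AHP2 and AHP3, which pass the signal on, had log2 fold changes of 0.49 and 0.48 (adjusted p = 0.299 and 0.342, edgeR), and AHP1 had 0.50 (0.478). AHP2 was at 18.7, 21.6 and 24.5 CPM in wild type against 35.9, 27.7 and 27.5 CPM in hsl2, with no overlap between the groups. AHP6, which inhibits the relay, was at 0.35.

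The type-B regulators are the activators of the type-A genes. Of 11 genes 5 were tested, 4 with values below 0 and 1 above, with a median of -0.10. The sign of that median turned without hsl2 1, to 0.03, and without hsl2 1 and wild type 3, to 0.12. The smallest p-values were those of ARR12, ARR10 and ARR2, at -0.24, 0.12 and -0.10 (adjusted p = 0.487, 0.697 and 0.828, edgeR). The KMD F-box proteins are known to mark type-B regulators for degradation, and of 4 genes 3 were tested, all with values below 0. KMD4 (AT3G59940) was at 4.28, 1.97 and 4.25 CPM in wild type against 0.996, 1.57 and 1.05 CPM in hsl2. Every hsl2 library lay below every wild type library, as in 9.44% of tested genes, and the log2 fold change was -1.52 (SE 0.37; adjusted p = 0.198, edgeR, and 0.0284, DESeq2). KMD2 and KMD1 were at -0.29 and -0.35. KMD3 did not pass the filter and was named after its values were seen. It lay the other way without overlap, at 0.344, 0.0615 and 0.364 CPM in wild type against 0.498, 0.657 and 0.589 CPM in hsl2. These values rest on 7, 1 and 6 counts in wild type and 7, 13 and 9 counts in hsl2. Wild type 1 and hsl2 1 thus had the same count before scaling. Every hsl2 library lay above every wild type library in 11.3% of tested genes.

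Among other genes that type-B regulators switch on, SHY2 (AT1G04240), the Aux/IAA repressor through which ARR1 and ARR12 act on root auxin transport, was at 1.03, 0.984 and 1.94 CPM in wild type against 2.85, 3.49 and 2.81 CPM in hsl2. The groups did not overlap, and the log2 fold change was 1.22 (SE 0.33; adjusted p = 0.229, edgeR, and 0.0981, DESeq2). EXPA1 was at -0.09. The cytokinin oxidase gene CKX3 (AT5G56970), whose product breaks cytokinin down, was at 2.90, 3.32 and 5.04 CPM in wild type against 5.41, 7.48 and 8.44 CPM in hsl2. The groups did not overlap in CPM, but in TPM they did, with wild type 3 at 4.57 and hsl2 1 at 4.04. Its log2 fold change was 0.93 (SE 0.26; adjusted p = 0.244, edgeR), and CKX5 and CKX6 had 0.28 and 0.41. Of 7 oxidase genes 4 were tested, 3 higher and 1 lower in hsl2. Of 18 synthesis genes 8 were tested, 5 higher and 3 lower, with a median of 0.06. The 3 with the smallest p were LOG3 at 0.56, LOG8 at 0.24 and LOG4 at 0.19 (adjusted p = 0.423, 0.476 and 0.711, edgeR). The 6 cytokinin response factor genes had a median of 0.07, with 3 higher and 3 lower. The smallest p-values were those of CRF1, CRF2 and CRF6, at 0.32, 0.14 and 0.36 (adjusted p = 0.595, 0.637 and 0.742, edgeR). The type-C genes ARR22 and ARR24 had 0 and 1 counts over all libraries.

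**Figure D5:**
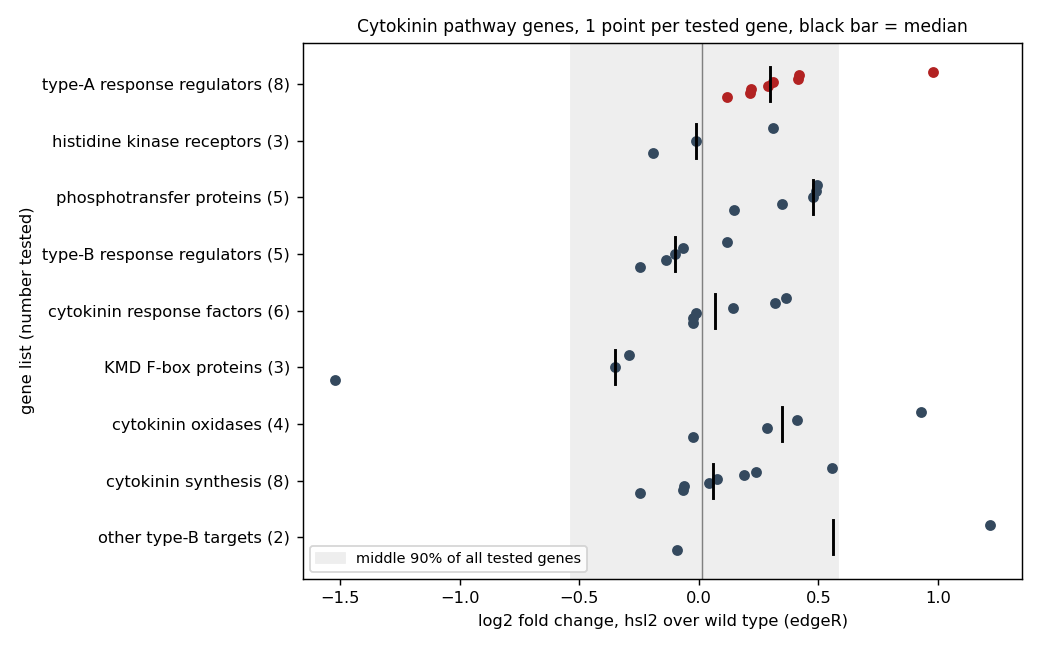
Log2 fold changes of hsl2 over wild type (horizontal axis) are shown for the type-A genes in red and the other tested cytokinin genes in dark blue, 1 point per gene and 1 row per list, with a black bar at each median. The grey band holds the middle 90% of all tested genes, from -0.54 to 0.58, and the thin line is the median of all tested genes. ARR3 lies to the right of the band and the other type-A genes lie inside it.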

How the data were processed

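Total RNA of root tips from 3 wild type and 3 hsl2 samples was sequenced from stranded libraries, per the labels' protocols. The deposited values are raw read counts per gene, 1 table per sample. Trimmomatic 0.33, STAR 2.5.1b and featureCounts are named in the submitters' processing notes. Neither the build and annotation nor how featureCounts treated strand is stated in the sources used here.

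Counts of 37336 genes were filtered with filterByExpr, scaled by TMM and tested with edgeR 4.0.16 in R 4.3.3 (quasi-likelihood test, genotype as the only term, all 6 libraries). P-values were adjusted by Benjamini-Hochberg over 17989 genes with a threshold of 0.05. DESeq2 1.42.0, limma-voom (limma 3.58.1), other scalings, other filters, a replicate block and fits without libraries were alternatives. The edgeR, DESeq2 and limma-voom fits of all 6 libraries were tested on simulated data. Of genes changed 1.5-fold they recovered 10.5%, 24.6% and 10.5% in that order. Of genes changed 2-fold they recovered 77%, 83.8% and 77%. False calls were 12 of 139 with edgeR, 29 of 169 with DESeq2 and 12 of 140 with limma-voom. The simulated counts were drawn independently for each gene and library, with each gene's fitted dispersion. Shifts shared by many genes within a library were not simulated, so these shares may not hold for the real libraries. CPM use TMM library sizes, and log2 CPM a prior count of 2. TPM were computed from counts and the union of exons in the RefSeq TAIR10.1 annotation, which held 37051 of the identifiers, matched by locus.

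No 2 libraries agreed within sampling noise. All 10 members are named with every library's value. Of each other cytokinin list the genes past the threshold, and otherwise up to 3 with the smallest p, are named, as are the 5 genes most like ARR3 and the members' mean. AHP6, KMD3, BRN2 and the type-C genes were named after their values were seen. The members and lists were chosen with earlier results of these data known. A floor of 3 counts covers counting error only.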

Additional observations from a re-analysis of the deposited data

How the results depend on the processing

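With 6 libraries the number of genes called depended on the setting. Over all genes edgeR called 0, with 2436 at an unadjusted p under 0.05. It called 110 without the filter on low counts, 52 with the replicate number as a block and 1311 without hsl2 1 and wild type 3, and DESeq2 called 292. With single libraries left out the count ran from 0 to 55, the highest without wild type 3. Of the type-A members 0 were called, against 1 without the filter, 1 with the replicate block and 1 with DESeq2. The fit without hsl2 1 and wild type 3 called 4. There the median log2 fold change of the tested members was 0.50 in place of 0.30. In that fit 7.2% of all genes passed, 4.48% higher in hsl2. It leaves out the highest wild type library of ARR3, ARR4, ARR8 and ARR9. It also leaves out the lowest hsl2 library of ARR3, ARR8 and ARR9. With single libraries left out the members' median ran from 0.17, without wild type 1, to 0.43, without wild type 3. Of the other cytokinin genes 0 were called, against 1 with DESeq2 and 4 without hsl2 1 and wild type 3. The log2 fold change of ARR7 turned to -0.005164 without hsl2 1, -0.064 without hsl2 3 and -0.017 without hsl2 1 and wild type 3, and with single libraries left out it ran from -0.064 to 0.37. The cause of these changes was not tested. Of 112 alternative values of single members, 102 kept their direction and side of the threshold, 7 passed it and 3 changed sign.

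The replicate numbers are not stated to mark a shared plate or day. Correlations of same-numbered libraries' deviations from their group means were 0.138, 0.0645 and 0.0204. Those of unlike-numbered libraries ran from -0.169 to 0.0645. Whether the numbers mark a shared plate or day was not tested, and the block is given as an alternative and not as a pairing. ARR7 and ARR15, at 17 to 65 counts per library, and ARR16 and ARR17 are the members that depth limits most.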
